A study of Mus musculus with 9 samples.

Results

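The genes described here carry fatty acids and ketone bodies into oxidation in the heart. The set holds 42 genes, chosen by symbol and grouped by role as uptake, activation, the carnitine shuttle, beta-oxidation, thioesterases and uncoupling proteins, ketone use, and malonyl-CoA control, of 38293 genes in the count table. All 42 were found and all 42 passed the filter on low counts, which left 15318 genes for testing. RNA was sequenced from ventricles of mice at postnatal day 7 (P7), from 5 Arid1a f/f control and 4 αMHC-Cre;Arid1a f/f (Arid1a cKO) libraries. Every library thus carried both floxed Arid1a alleles, and the cKO libraries also carried Cre recombinase driven by αMHC, a promoter active in cardiomyocytes. The mice were kept on a C57B/6J background and both sexes were used. Controls were littermates without Cre, so Cre itself and the deletion of Arid1a, which encodes a component of SWI/SNF chromatin remodellers, cannot be told apart. The study counts its replicates as hearts, and the labels number the libraries within each group without naming animals or litters.

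Around birth the heart moves from glucose and lactate towards fatty acids as its main fuel. Long-chain fatty acids enter the cardiomyocyte through membrane transporters, are bound by a carrier protein in the cytosol, are joined to coenzyme A, and cross into mitochondria as carnitine esters. There, beta-oxidation repeatedly shortens the chain by dehydrogenation, hydration, a second dehydrogenation and thiolysis, and passes electrons to the respiratory chain. Ketone bodies made by the liver are oxidised by a separate short route that also ends in acetyl-CoA, and malonyl-CoA restrains the entry of fatty acids into mitochondria.

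The promoters of 3 genes on which the results turn are shown first. Acadm and Acadl, acyl-CoA dehydrogenases of the first step of beta-oxidation, stood lower in the cKO libraries, and Bdh1, a ketone body dehydrogenase, stood higher; these 3 were picked after their values and motif matches were seen. Each sequence runs from 250 bases before to 50 bases after a transcription start in RefSeq (GRCm38.p6), 5′ to 3′ on the gene's strand. Acadm lies at chr3:153944594-153944893 on the minus strand, Acadl at chr1:66863260-66863559 on the minus strand, and Bdh1 has an upstream start at chr16:31422047-31422346 and a downstream start at chr16:31428503-31428802, both on the plus strand. Capitals mark matches on either strand to the nuclear receptor element AAGGTCA, to the CCAAT box and to the GC box GGGCGG, so reverse complements of these letters are capitalised too.
Acadm: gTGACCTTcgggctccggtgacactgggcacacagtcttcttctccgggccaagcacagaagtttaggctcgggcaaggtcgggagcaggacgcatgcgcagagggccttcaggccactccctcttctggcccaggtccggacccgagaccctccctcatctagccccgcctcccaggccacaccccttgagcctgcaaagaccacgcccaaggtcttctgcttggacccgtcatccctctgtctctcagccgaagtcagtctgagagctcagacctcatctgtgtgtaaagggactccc
Acadl: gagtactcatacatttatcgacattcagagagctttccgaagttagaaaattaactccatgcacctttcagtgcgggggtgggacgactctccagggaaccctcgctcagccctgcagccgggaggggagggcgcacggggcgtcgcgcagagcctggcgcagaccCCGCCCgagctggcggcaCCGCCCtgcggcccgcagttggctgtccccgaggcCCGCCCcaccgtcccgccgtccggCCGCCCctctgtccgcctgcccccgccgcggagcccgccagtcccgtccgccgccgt
Bdh1, upstream start: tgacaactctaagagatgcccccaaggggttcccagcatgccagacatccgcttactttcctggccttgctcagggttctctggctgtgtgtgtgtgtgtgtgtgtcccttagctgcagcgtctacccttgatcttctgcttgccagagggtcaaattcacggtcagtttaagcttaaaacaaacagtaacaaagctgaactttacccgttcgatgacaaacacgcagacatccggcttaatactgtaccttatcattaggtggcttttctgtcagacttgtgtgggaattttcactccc
Bdh1, downstream start: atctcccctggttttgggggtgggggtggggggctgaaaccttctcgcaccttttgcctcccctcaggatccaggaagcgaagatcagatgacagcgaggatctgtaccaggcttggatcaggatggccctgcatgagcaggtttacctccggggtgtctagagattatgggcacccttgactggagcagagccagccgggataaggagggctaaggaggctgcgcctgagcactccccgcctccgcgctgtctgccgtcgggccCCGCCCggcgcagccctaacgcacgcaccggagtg
The Acadm window held 1 match to AAGGTCA, the core letters that nuclear receptors of the ERR family read, and the Acadl window held 4 matches to GGGCGG, the letters of a GC box. Of the 2 Bdh1 windows, the downstream one held 1 match to GGGCGG and the upstream one held none of the 3 motifs. Promoters were found for 35 of the 42 genes. In all, 10 motifs were searched on both strands, and several overlap: AAGGTCA lies within TNAAGGTCA and TCAAGGTCA, and CGCATGCG lies within the 10-letter NRF1 palindrome, which in turn fits the looser form of that palindrome with any base at 1 position. AAGGTCA stood in 2 of the 35 (Acacb and Acadm), or 5.71%, against 5.38% of the 27025 genes with a promoter entry. CCAAT stood in 45.7% of the 35 against 41.1% of all genes with an entry, and GGGCGG in 65.7% against 38.2%. TATAAA stood in 2.86% against 15.7%, CGCATGCG in 8.57% against 2.07%, the NRF1 palindrome in 5.71% against 1.07% and its looser form in 11.4% against 5.19%. TNAAGGTCA, TCAAGGTCA and the DR1 element (a direct repeat of AGGTCA around 1 spacer base, which contains AAGGTCA where that base is A) stood in none of the 35, and in 1.43%, 0.466% and 0.0481% of all genes with an entry. The 35 all passed the filter on low counts, whereas the 27025 are more than the 15318 genes tested. The comparison is therefore not matched for expression, whose part in these shares was not tested. Such matches describe letters in these windows and were not tied to any factor.

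The libraries held between 31011055 and 40073801 counts. Arid1a itself was lower in the cKO libraries (100.3 to 113 against 128 to 148 CPM, log2 fold change -0.39 ± 0.06 SE, adjusted p = 0.00132). Levels are given as CPM (reads per 1e+06 counted reads) after scaling by the trimmed mean of M values (TMM), and changes are cKO against control from edgeR's quasi-likelihood test, with Benjamini-Hochberg adjustment over all 15318 genes tested. "Passed" means an adjusted p under 0.05. The libraries fell into 2 sets by Rps3a3, a ribosomal protein gene copy, which stood at 0.345 to 0.521 CPM in control 1 and 2 and cKO 1 to 3 and at 99.7 to 112 CPM in control 3 to 5 and cKO 4. The sources used here give no reason for these sets. Among the 5 controls alone, 13 of the 42 genes were higher and 13 lower in the Rps3a3-high set without overlap. That compares with 23.1% and 23.5% of all genes tested. Within-set values are therefore given for the genes that passed.

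Of the 42 genes, 12 passed, or 28.6% against 16.3% of all genes tested. The 7 that rose were Fabp3, Acsl5, Acad11, Ucp2, Bdh1, Oxct1 and Acaca (16.7% against 8.25%), and the 5 that fell were Acadl, Acadm, Echs1, Hadh and Etfa (11.9% against 8.03%). All 5 that fell belong to mitochondrial beta-oxidation, whereas those that rose were spread over uptake, activation, beta-oxidation, uncoupling, ketone use and malonyl-CoA synthesis. Only Ucp2 and Bdh1 also passed a fold of 1.5, against 6.72% of all genes tested. The median log2 fold change of the 42 was -0.01, against 0.01 over all genes tested. In 12 of the 42, or 28.6%, the control and cKO libraries did not overlap (6 higher and 6 lower in cKO), against 16.7% of all genes tested (8.16% and 8.58%). With the Rps3a3 set added to the model 10 of the 42 rose and 7 fell, where 19.9% of all genes tested passed (10.3% higher and 9.62% lower).

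**Figure D1:**
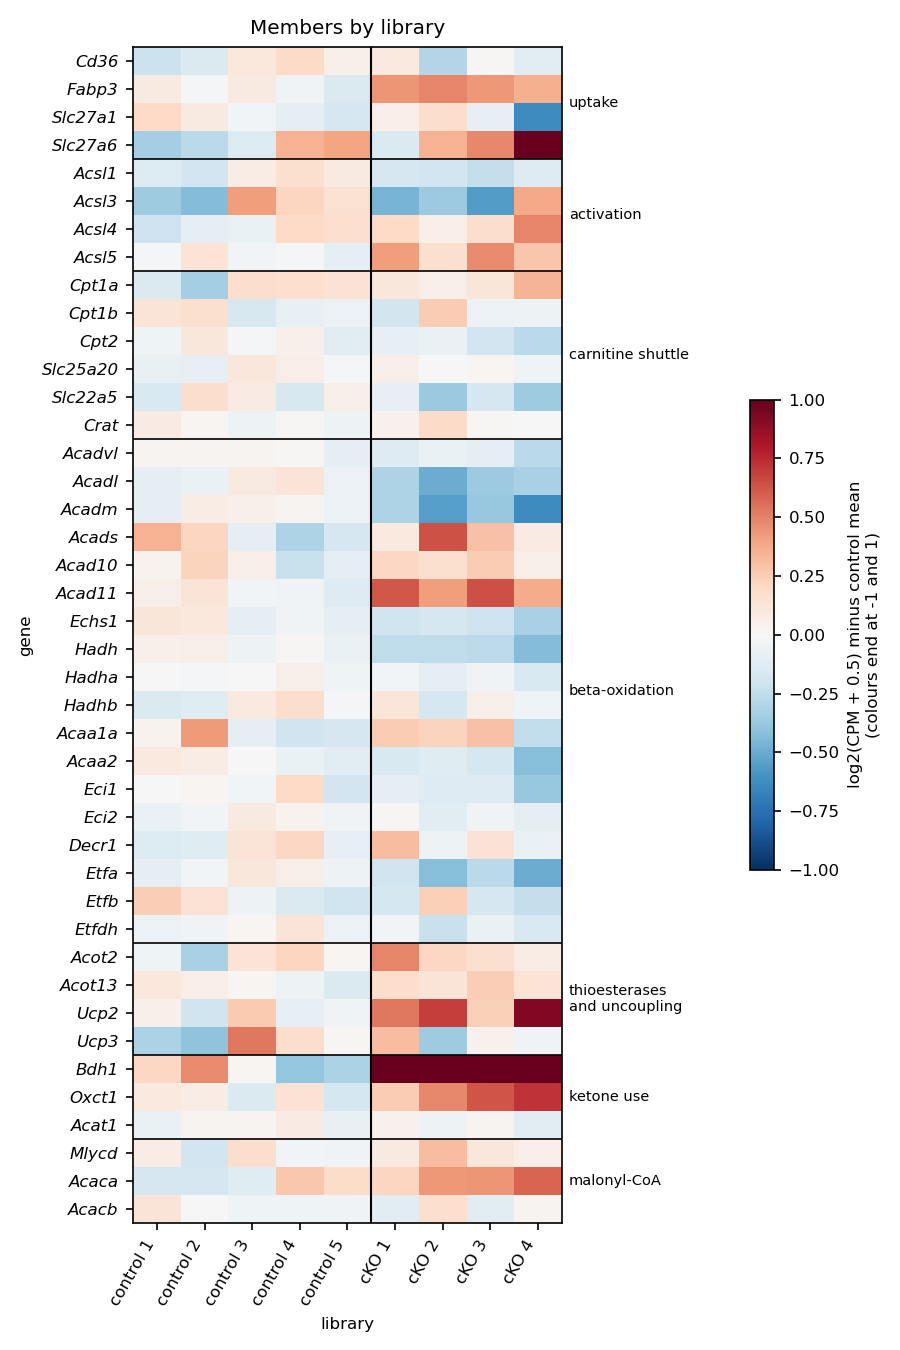
Level of each of the 42 genes (rows, by role) in each of the 9 libraries (columns), as log2(CPM + 0.5) minus the mean of the 5 control libraries, with colours ending at -1 and 1. Bdh1 is above the end of the scale in all 4 cKO libraries and Slc27a6 in cKO 4, and Acadl, Acadm, Hadh and Etfa are below the control mean in all 4 cKO libraries.

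**Figure D2:**
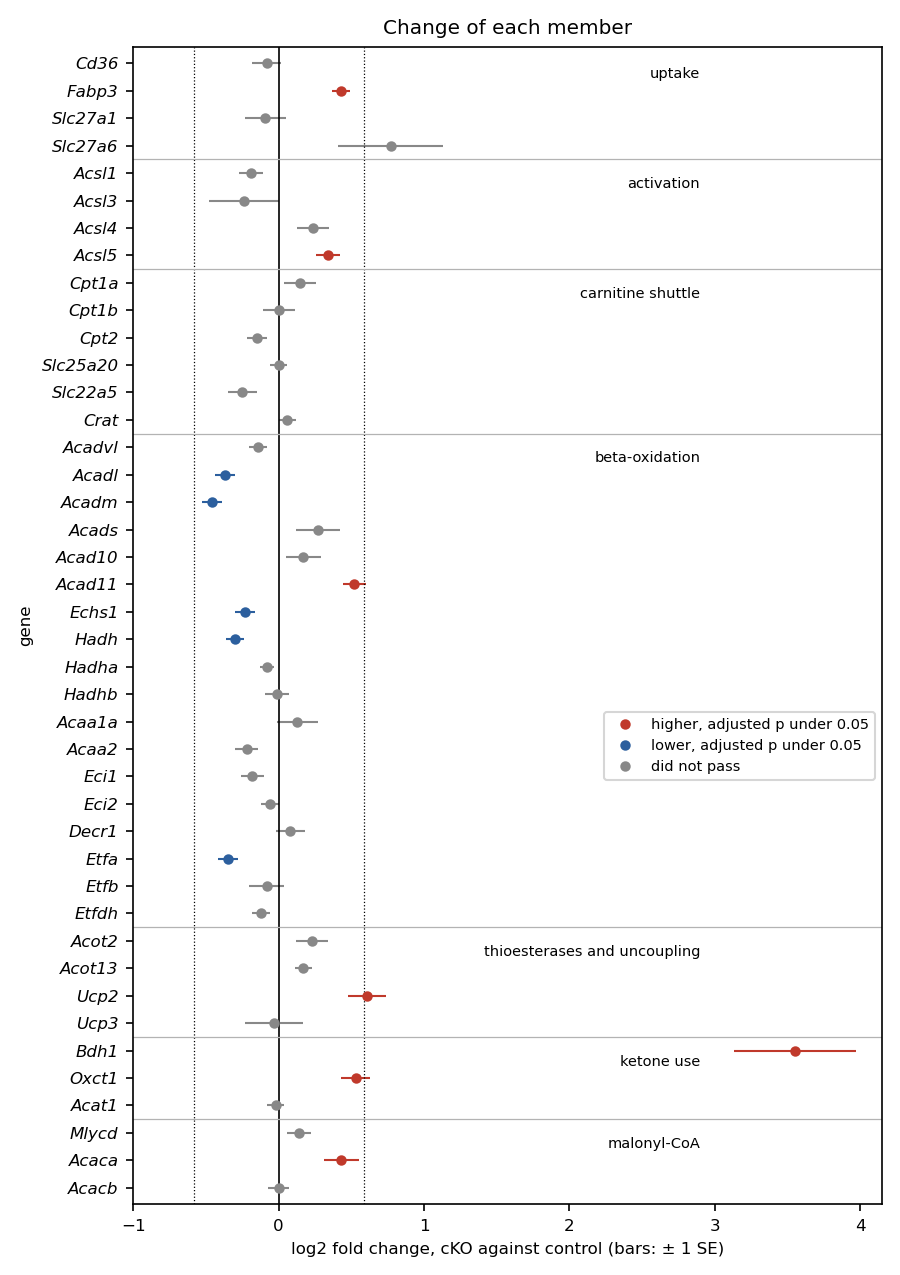
Log2 fold change of each gene, cKO against control, with bars of ± 1 SE, and dotted lines at a fold of 1.5 in either direction. The 7 genes that rose are red, the 5 that fell are blue and the 30 that did not pass are grey, and Bdh1 stands apart at 3.55.

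Summed over all 42 genes, the level averaged 16550 CPM over the 5 controls (SD 582) and 16190 CPM over the 4 cKO libraries (SD 467), and the libraries of the groups overlapped. The summed beta-oxidation genes stood at 9428 ± 317 CPM in control and 8337 ± 421 CPM in cKO, without overlap (8949 to 9770 against 7783 to 8742). The sums for uptake (3023 ± 158 against 3492 ± 162 CPM), for thioesterases and uncoupling (559.7 ± 50.7 against 719.4 ± 60.1 CPM) and for ketone use (1041 ± 61.0 against 1218 ± 69.4 CPM) were higher in cKO without overlap. Those for activation, the carnitine shuttle and malonyl-CoA overlapped. These sums weight abundant genes most and were given no test. The share of counts from mitochondrially encoded genes was 12.2% to 13.9% in control and 12.7%, 10%, 11.9% and 10.9% in cKO 1 to 4, overlapping, and its part in the values for beta-oxidation was not tested.

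In uptake, 1 of 4 genes passed. Fabp3, the heart fatty acid-binding protein that carries fatty acids through the cytosol, stood at 1671, 1553, 1670, 1532 and 1420 CPM in control 1 to 5 and at 2131, 2200, 2115 and 2002 CPM in cKO 1 to 4. Every cKO library was above every control library. Fabp3 rose 1.35-fold (log2 0.43 ± 0.06 SE, adjusted p = 0.00082), and the difference was 0.42 on the log2 scale among Rps3a3-low libraries and 0.38 among Rps3a3-high ones. Per kilobase of its principal transcript it was the most abundant of the 4, at 1910 ± 128 CPM per kb in control (SD, n = 5), above Cd36, the fatty acid translocase of the cell surface, at 401 ± 47.2 CPM per kb, with no overlap between the 2 in the controls. Cd36 did not pass (log2 -0.08 ± 0.10 SE, adjusted p = 0.66), nor did Slc27a1, a fatty acid transport protein of the plasma membrane (-0.09 ± 0.14 SE). Slc27a6, another fatty acid transport protein, lay at 0.752, 0.811, 0.942, 1.51 and 1.58 CPM in control and at 0.933, 1.51, 1.71 and 3.41 CPM in cKO. The groups overlapped and cKO 4 was highest, and the change did not pass (log2 0.77 ± 0.36 SE, adjusted p = 0.181), though it did after adjusting for the Rps3a3 set (log2 1.06, adjusted p = 0.0112).

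Activation is the joining of a fatty acid to coenzyme A by long-chain acyl-CoA synthetases, and 1 of these 4 genes passed. Acsl1, the main synthetase of heart muscle, was the most abundant per kilobase (237 ± 25.3 CPM per kb in control). Its level was 837, 804, 970, 1031 and 982 CPM in control and 820.5, 804, 780 and 843 CPM in cKO. The 2 Rps3a3-low controls lay among the cKO libraries, and Acsl1 did not pass (log2 -0.19 ± 0.08 SE, adjusted p = 0.132). Acsl5, a synthetase of mitochondria and endoplasmic reticulum, stood at 35.7, 39.9, 35.4, 35.9 and 34.0 CPM in control and at 48.3, 40.5, 50.4 and 43.8 CPM in cKO. The groups did not overlap, although cKO 2 lay close to control 2. Acsl5 rose 1.26-fold (log2 0.34 ± 0.08 SE, adjusted p = 0.0114), with differences of 0.29 and 0.32 within the Rps3a3-low and Rps3a3-high libraries. Acsl4, which prefers polyunsaturated fatty acids, had a log2 fold change of 0.24 ± 0.11 SE and Acsl3, a synthetase of lipid droplets, -0.24 ± 0.24 SE, and neither passed. After adjusting for the Rps3a3 set Acsl4 passed (log2 0.34, adjusted p = 0.00821).

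None of the 6 carnitine shuttle genes passed, with 2 at an unadjusted p under 0.05 (Cpt2 and Slc22a5), and DESeq2 gave none at an adjusted p under 0.05 either. Their median log2 fold change was 0.00, with a range from -0.25 to 0.15. Crat, carnitine acetyltransferase, was the most abundant per kilobase (135 ± 5.14 CPM per kb in control) and stood at 602, 577, 550.4, 574 and 550.2 CPM in control and at 586, 649.9, 575 and 569 CPM in cKO. Slc22a5, the plasma membrane carnitine transporter, had the most negative value, with 24.7, 31.1, 29.1, 24.5 and 28.7 CPM in control and 25.9, 21.1, 24.4 and 21.4 CPM in cKO. The groups overlapped, and the change did not pass (log2 -0.25 ± 0.10 SE, adjusted p = 0.1). Cpt1a, the carnitine palmitoyltransferase of the outer mitochondrial membrane that prevails in liver and in the fetal heart, had a log2 fold change of 0.15 ± 0.11 SE and Cpt1b, the muscle form, of 0.00 ± 0.11 SE. Cpt1a passed after adjusting for the Rps3a3 set (log2 0.28, adjusted p = 0.00556). Cpt1b stood at 5.17 ± 0.507 CPM per kb in control, below Cpt1a at 31.2 ± 4.80. In the annotation 81.4% of the exonic bases of Cpt1b are shared on the same strand with Gm44502. That gene is not in the count table, which does list genes without any counts. Whether it affected the counting of Cpt1b is not known, so the level of Cpt1b is uncertain. Cpt2, the inner membrane enzyme (-0.15 ± 0.07 SE), and Slc25a20, the carnitine-acylcarnitine carrier (0.00 ± 0.06 SE), completed the shuttle, and Cpt2 passed after adjusting for the Rps3a3 set (-0.19, adjusted p = 0.0486).

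Of the 18 beta-oxidation genes 5 fell (27.8%, against 8.03% of all genes tested), 1 rose (5.56%, against 8.25%) and 12 did not pass, and their median log2 fold change was -0.10. The acyl-CoA dehydrogenases take the first step and differ in the chain length they prefer. Acadl, the long-chain enzyme, was the most abundant gene of the group per kilobase (762 ± 52.9 CPM per kb in control). Its level was 1366, 1394, 1547, 1591 and 1402 CPM in control and 1179, 1031, 1130 and 1164 CPM in cKO. All 4 cKO libraries were below all controls. Acadl fell to 0.771 of the control level (log2 -0.37 ± 0.07 SE, adjusted p = 0.00309). The difference for Acadl was -0.31 among Rps3a3-low libraries and -0.38 among Rps3a3-high ones. Acadm, the medium-chain enzyme, stood at 761, 851, 838, 823 and 775 CPM in control and at 651, 552.5, 621 and 523 CPM in cKO. Here too the groups did not overlap, with cKO 4 lowest. Acadm fell to 0.725 of the control level (log2 -0.46 ± 0.07 SE, adjusted p = 0.00131), the most negative change among the 42 genes, and the difference was -0.41 among Rps3a3-low libraries and -0.63 among Rps3a3-high ones.

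The other dehydrogenases that complete the chain-length series did not pass. Acadvl, the very-long-chain enzyme, stood at a log2 difference of -0.14 ± 0.06 SE and Acads, the short-chain enzyme, at 0.27 ± 0.15 SE (adjusted p = 0.155 and 0.26). These 2 were singled out after their values were seen. For Acadvl, 42.9% of exonic bases overlap Dvl2 on the opposite strand, so its count is uncertain if strand was not used in counting. Acad11, a dehydrogenase of longer acyl chains, stood at 54.5, 57.1, 51.3, 50.8 and 47.8 CPM in control and at 80.4, 70.1, 81.9 and 67.6 CPM in cKO. Every cKO library was above every control. Acad11 rose 1.43-fold (log2 0.52 ± 0.08 SE, adjusted p = 0.000881), the only gene of the group to rise, from a level of 15.2 ± 1.04 CPM per kb in control that was far below that of Acadl. The differences for Acad11 were 0.47 and 0.43 within the Rps3a3-low and Rps3a3-high libraries.

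Among the later steps, Echs1, the short-chain enoyl-CoA hydratase of the second step, stood at 249, 247, 214, 223 and 214 CPM in control and at 199, 204, 199 and 182.5 CPM in cKO. The groups did not overlap, but the Rps3a3-high controls lay close to the cKO libraries. Echs1 fell to 0.854 of the control level (log2 -0.23 ± 0.07 SE, adjusted p = 0.0368), and it passed in only 3 of the 9 fits that left out 1 library. Its differences were -0.31 and -0.25 within the Rps3a3-low and Rps3a3-high libraries. Hadh, the hydroxyacyl-CoA dehydrogenase of the third step, stood at 449, 451, 419.9, 437 and 414 CPM in control and at 364, 364, 362 and 321 CPM in cKO. All 4 cKO libraries were below all controls, with cKO 4 apart from the other three. Hadh fell to 0.813 of the control level (log2 -0.30 ± 0.06 SE, adjusted p = 0.00522). Its differences were -0.31 and -0.4 within the Rps3a3-low and Rps3a3-high libraries.

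Hadha and Hadhb, the subunits of the trifunctional protein that carries out the last 3 steps on long chains, had log2 fold changes of -0.08 ± 0.05 SE and -0.01 ± 0.08 SE and did not pass. Acaa2, the mitochondrial thiolase of the last step, was lower in cKO without overlap (log2 -0.22 ± 0.08 SE) but did not pass (adjusted p = 0.0725); it passed in DESeq2 (adjusted p = 0.0394) and after adjusting for the Rps3a3 set (adjusted p = 0.00346). The auxiliary enzymes for unsaturated chains, Eci1 (-0.18 ± 0.08 SE), Eci2 (-0.06 ± 0.06 SE) and Decr1 (0.08 ± 0.10 SE), did not pass. Nor did Acaa1a, the peroxisomal thiolase (0.13 ± 0.14 SE), or Acad10, a further acyl-CoA dehydrogenase (0.17 ± 0.12 SE).

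Electrons from the dehydrogenases pass to the electron transfer flavoprotein, whose alpha subunit Etfa stood at 511, 533, 589, 568 and 525 CPM in control and at 474, 405, 452 and 386 CPM in cKO. All 4 cKO libraries were below all controls. Etfa fell to 0.787 of the control level (log2 -0.35 ± 0.07 SE, adjusted p = 0.0077), and the difference was -0.24 among Rps3a3-low libraries and -0.54 among Rps3a3-high ones. Etfb, the beta subunit, did not pass (log2 -0.08 ± 0.12 SE, adjusted p = 0.676), and in the annotation it shares 53.0% of its exonic bases on the same strand with Gm45233, which is not in the count table. Etfdh, which hands the electrons to ubiquinone, did not pass either (-0.12 ± 0.06 SE). The Etfa to Etfb ratio did not pass (log2 difference -0.26, exact permutation p adjusted over 10 pairs = 0.317), with -0.01 among Rps3a3-low libraries and -0.43 among Rps3a3-high ones.

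**Figure D3:**
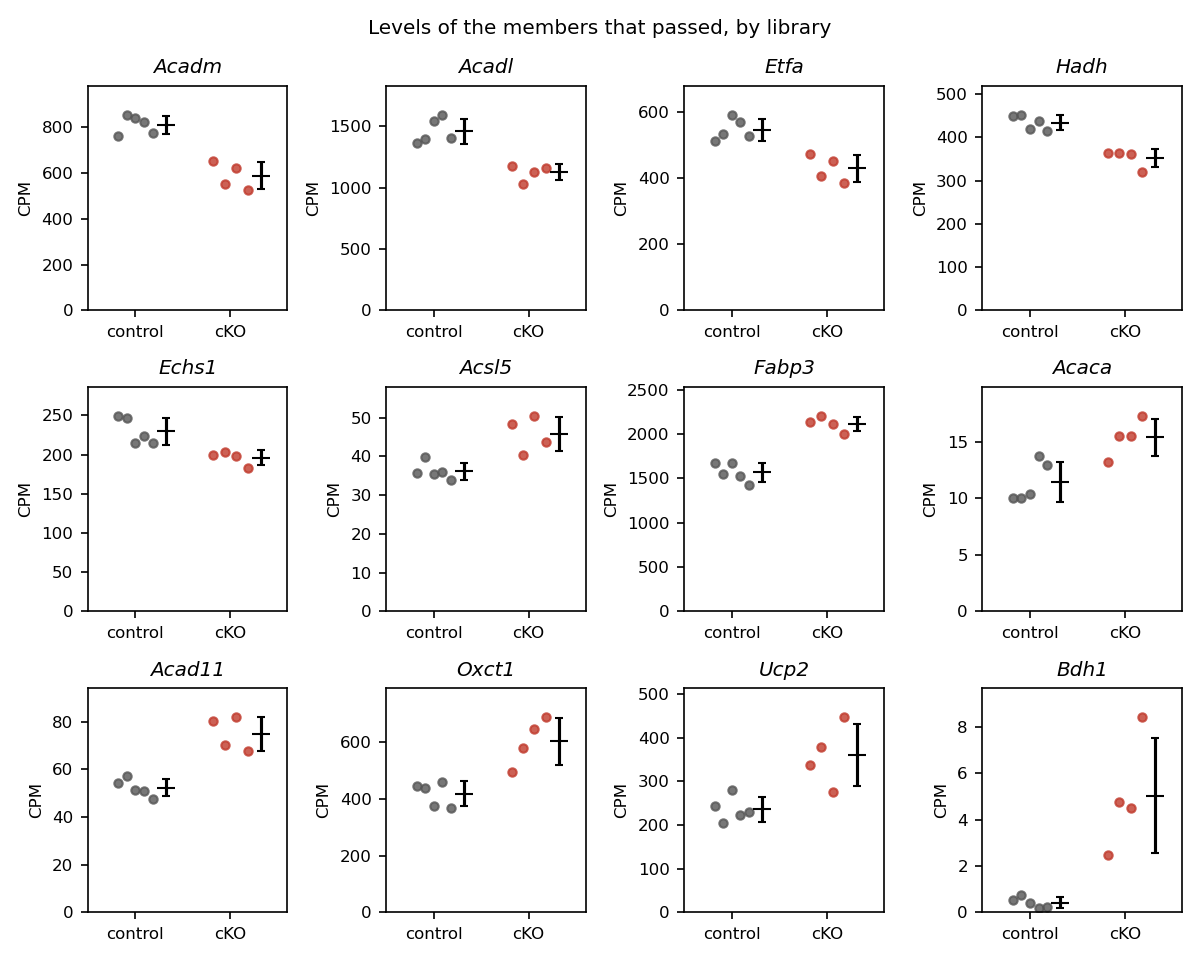
CPM of the 12 genes that passed, in each control library (grey points) and each cKO library (red points), with the mean and SD of each group beside them; every axis starts at 0. The groups are apart in 10 of the 12 and overlap in Ucp2 and Acaca.

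Among thioesterases and uncoupling proteins 1 of 4 passed. Acot13, a thioesterase that frees fatty acids from coenzyme A, was the most abundant per kilobase (247 ± 16.5 CPM per kb in control). It stood at 191, 187, 180.1, 172 and 161 CPM in control and at 201, 195, 211 and 195 CPM in cKO. The groups did not overlap, yet the change did not pass (log2 0.17 ± 0.06 SE, adjusted p = 0.0861). Ucp2, an uncoupling protein family member of the inner mitochondrial membrane, stood at 243, 204.5, 281, 222 and 229 CPM in control and at 338, 379, 276 and 446 CPM in cKO. The groups overlapped, since cKO 3 lay below control 3. Ucp2 rose 1.53-fold (log2 0.61 ± 0.13 SE, adjusted p = 0.00768), with differences of 0.56 and 0.88 within the Rps3a3-low and Rps3a3-high libraries. It passed in 18 of the 20 alternative fits. Without control 2, cKO 2 or cKO 4 it missed the fold of 1.5, and its lowest log2 fold change on leaving out 1 library was 0.49. Ucp3, its paralog of muscle, did not pass (-0.03 ± 0.20 SE), nor did Acot2, a mitochondrial thioesterase with near-identical copies whose reads could have been split (0.23 ± 0.11 SE).

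Of the 3 ketone use genes 2 rose (66.7%, against 8.25% of all genes tested). Bdh1, which oxidises beta-hydroxybutyrate to acetoacetate, stood at 0.542, 0.753, 0.416, 0.189 and 0.226 CPM in control and at 2.46, 4.77, 4.49 and 8.40 CPM in cKO. Every cKO library was above every control, and within cKO the level was lowest in cKO 1 and highest in cKO 4. Bdh1 rose 11.7-fold (log2 3.55 ± 0.42 SE, adjusted p = 0.000221), the largest change among the 42 genes, from the lowest control level among them, 0.425 ± 0.233 CPM (SD, n = 5). Fitted on the 5 Rps3a3-low libraries alone its log2 fold change was 2.59 (adjusted p = 0.00811). Oxct1, the transferase that activates acetoacetate and the committed enzyme of ketone oxidation, stood at 446, 439, 375.5, 460.4 and 368 CPM in control and at 496, 579.6, 645 and 687 CPM in cKO. The groups did not overlap. Oxct1 rose 1.44-fold (log2 0.53 ± 0.10 SE, adjusted p = 0.00396), with differences of 0.36 and 0.78 within the Rps3a3-low and Rps3a3-high libraries. Acat1, the thiolase that splits acetoacetyl-CoA, was the most abundant of the 3 per kilobase (183 ± 8.51 CPM per kb in control) and stood at 595, 633, 635, 658 and 589 CPM in control and at 639, 600.3, 632 and 575 CPM in cKO. The groups overlapped and Acat1 did not pass (log2 -0.02 ± 0.06 SE, adjusted p = 0.819). Even after its rise Bdh1 stood at 1.61 CPM per kb in cKO, against 171 for Oxct1. Bdh1 and Oxct1 share 13.7% and 12.6% of their exonic bases with genes on the opposite strand.

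**Figure D4:**
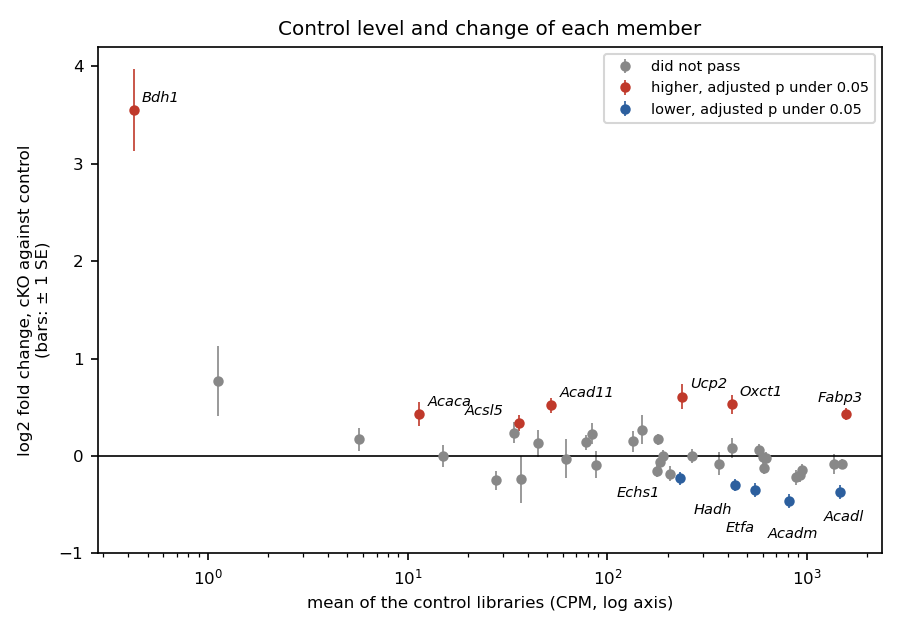
Log2 fold change of each of the 42 genes, cKO against control (bars ± 1 SE), against its mean level in the 5 control libraries in CPM on a log axis. The 5 genes that fell (blue) lie between 229.6 and 1460 CPM, and Bdh1, which rose, has the lowest control level.

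Malonyl-CoA is made by the acetyl-CoA carboxylases and removed by Mlycd, and 1 of these 3 genes passed. Acaca, the carboxylase of fatty acid synthesis, stood at 10.02, 10.05, 10.4, 13.8 and 12.9 CPM in control and at 13.2, 15.5, 15.5 and 17.2 CPM in cKO. The groups overlapped, since cKO 1 lay below control 4. Acaca rose 1.35-fold (log2 0.43 ± 0.12 SE, adjusted p = 0.0331), and it passed in only 3 of the 9 fits that left out 1 library. Its differences were 0.53 and 0.47 within the Rps3a3-low and Rps3a3-high libraries. Mlycd, malonyl-CoA decarboxylase, was the most abundant per kilobase (36.9 ± 3.49 CPM per kb in control, overlapping Acacb) and stood at 82.4, 68.6, 88.5, 76.9 and 76.3 CPM in control and at 83.3, 97.0, 84.7 and 82.0 CPM in cKO. The groups overlapped and the change did not pass (log2 0.14 ± 0.08 SE, adjusted p = 0.265). Acacb, the carboxylase at the outer mitochondrial membrane, had a log2 fold change of 0.00 ± 0.07 SE.

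Ratios between genes of like role were compared for 10 pairs with a two-sided exact permutation test of the group labels, on log2(CPM + 0.5). With the two-sided p taken as double the smaller tail, the smallest p possible was 0.0159, and 0 of 10 pairs passed after adjustment over the pairs, with 3 at an unadjusted p under 0.05. The Acsl1 to Acsl4 ratio was lower in cKO by a log2 difference of -0.41 and the Bdh1 to Oxct1 ratio higher by 1.99, both without overlap and both with exact permutation p = 0.0159 and adjusted p = 0.0794. The Bdh1 to Oxct1 difference depends on the pseudocount and was 2.76 at 0.1 CPM (exact permutation p adjusted over the pairs = 0.0794). A second definition, based on the absolute difference and tried after those p-values were seen, gave exact permutation p = 0.00794 and adjusted p = 0.0397 for both. The first definition is kept as the result, and the call for these 2 pairs therefore depends on the definition. The Acacb to Acaca ratio had a difference of -0.42 (adjusted p = 0.106), and the Cpt1b to Cpt1a ratio of -0.17 (adjusted p = 0.496).

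Values of cell type markers moved beside these results. The 12 cardiomyocyte markers summed to 67040 to 77320 CPM in control and 60890 to 66540 CPM in cKO, without overlap, with 2 of 12 lower and none higher. The 2 were Myl2 (log2 -0.43) and Pln (-0.45). The study counts Myl2 among maturation markers lowered in cKO, so this sum may not measure cardiomyocyte content alone. The mean log2 of the sum differed by -0.17, and dividing by it moves each gene up by about that amount. Relative to that sum, a comparison added after the data were seen, all 5 genes that fell overlapped between the groups, with log2 differences of -0.20 for Acadl, -0.30 for Acadm, -0.05 for Echs1, -0.13 for Hadh and -0.18 for Etfa. The two-sided exact permutation p, unadjusted, was 0.0317 for Acadm and for Hadh, 0.143 for Acadl, 0.159 for Echs1 and 0.127 for Etfa. The 7 genes that rose were then higher in every cKO library than in every control, by 0.50 for Acsl5 to 2.68 for Bdh1 on log2(CPM + 0.5). The value for Bdh1 is held down by that pseudocount, which is as large as its control level, and was 3.45 with a pseudocount of 0.1 CPM. The fibroblast markers summed to 7368 to 8723 CPM in control and 8891 to 10010 CPM in cKO, with 4 of 10 higher, and macrophage markers to 118.8 to 205.6 and 141 to 265.7 CPM, with 0 of 10 passing. The adipocyte markers summed to 26.04 to 33.4 and 49.2 to 60.2 CPM, nearly all of it Cidea, a lipid droplet protein, whose mean went from 29.4 to 54.8 CPM. Of the other adipocyte markers Lep was at 0, Adipoq had means of 0.0194 and 0.208 CPM in control and cKO, and Ucp1, the uncoupling protein of brown fat, had means of 0.217 and 1.25 CPM and reached 4.92 CPM in 1 library. The skeletal muscle markers summed to 1.83 to 2.53 CPM in control and 3.10 to 3.80 CPM in cKO, without overlap, with 0 of the 2 tested passing (Tnnt3 at log2 0.62, adjusted p = 0.0529, and Mylpf at 0.75, adjusted p = 0.0705) and Myod1 at 0 in every library. The atrial markers summed to 136.9 to 230.8 CPM in control and 210.5 to 280.1 CPM in cKO, overlapping, with 2 of 6 tested higher and 1 lower. The endothelial and epicardial lists each had 1 gene higher and 1 lower, with summed log2 differences of -0.03 and 0.07, and no gene of the mural, erythroid and lymphocyte lists passed (summed log2 differences of 0.06, 0.38 and -0.09). In bulk RNA, fewer cells of a type and less RNA per cell cannot be told apart, and the part of these cell types in the changes above was not tested.

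Of 76 further genes listed for the pathway 66 were tested, of which 7 rose (10.6%, against 8.25% of all genes tested) and 11 fell (16.7%, against 8.03%). Slc16a7, a monocarboxylate transporter that carries ketone bodies, stood at 7.37, 7.56, 8.67, 8.65 and 6.98 CPM in control and at 25.8, 22.0, 25.6 and 22.9 CPM in cKO, without overlap, and rose by 1.62 ± 0.10 SE on the log2 scale (adjusted p = 7.49e-07). Bdh2, a cytosolic relative of Bdh1, rose by 1.26 ± 0.24 SE from 0.668 ± 0.0993 CPM, and Acat2, a cytosolic thiolase, by 0.36 ± 0.10 SE (passing in 2 of 9 fits that left out 1 library), so that 3 of 7 tested genes of ketone making and transport rose (42.9%). Of 10 tested genes of other activation and carnitine 3 fell (30.0%), namely Acss3 (-2.29 ± 0.20 SE) and Acss1 (-0.95 ± 0.15 SE), which activate short-chain acids in mitochondria, and Slc22a4, an organic cation transporter (-0.93 ± 0.21 SE). Of 20 other acyl-CoA enzymes, a list that is largely but not wholly mitochondrial, 5 fell (25.0%) and none rose, among them Acot7, a mainly cytosolic thioesterase (-0.42 ± 0.13 SE, passing in 2 of those 9 fits), Acadsb, a dehydrogenase of branched chains (-0.35 ± 0.07 SE), and Pccb, a subunit of propionyl-CoA carboxylase (-0.28 ± 0.06 SE). Of 17 peroxisomal genes 3 rose (17.6%) and 2 fell (11.8%), with Ech1 at -0.38 ± 0.10 SE (passing in 7 of 9), Pecr at 0.32 ± 0.10 SE (3 of 9) and Scp2 at -0.29 ± 0.06 SE. Among 12 genes of other uptake and binding, Vldlr, a lipoprotein receptor, fell by 0.39 ± 0.08 SE and Slc27a4, a fatty acid transport protein, rose by 0.27 ± 0.08 SE (passing in 3 of 9). None of the 13 regulators of the pathway passed, with 0 at an unadjusted p under 0.05 in edgeR and 0 at an adjusted p under 0.05 in DESeq2. With the Rps3a3 set in the model 1 of the 13 passed, Rxrb, a retinoid X receptor (log2 -0.20, adjusted p = 0.0423), named here after its value was seen.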

How the data were processed

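Poly(A) RNA of 9 P7 ventricle samples was sequenced single-end from stranded libraries. The authors deposited 1 table of raw read counts per gene, with whole numbers and no normalisation. The submitters' processing notes name mm10, STAR 2.4.2a and HTSeq 0.6.1. The counting annotation and strand setting are not given in the sources used here, so overlapping, antisense and near-identical genes are uncertain. Groups came from the labels, which give 5 controls, while the study's methods and a legend differ on that number. Symbols and coordinates came from GENCODE M21 (GRCm38), and 36429 of 38293 identifiers matched, with 99.82% of the counts.

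Genes were kept by filterByExpr (minimum count 10) and tested with edgeR 4.0.16 in R 4.3.3 by the quasi-likelihood F test with TMM scaling and genotype as the only term, two-sided, with Benjamini-Hochberg adjustment. The study's methods used DESeq2, run here (1.42.0) as an alternative. Scripts were tested on simulated data. Levels per kilobase use the principal transcript of GENCODE; union exon length was looked at first, and the order of genes per kilobase depends on this choice, most for Acsl1, Echs1 and Acad11.

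The genes, lists and tests were chosen with earlier results of these data known. Values per library were given for genes that passed, for the most abundant gene per kilobase and the largest change in each role, and for both genes of a pair that passed; from other lists, at most 3 genes that passed were named, by size of change. Other genes of the set are given by their change alone, and the levels of Slc16a7 were added after its values were seen. Alternatives covered scaling, low-count filters, covariates, the library sets, DESeq2 and leaving out each library. Scaling to cardiomyocyte markers, its second pseudocount and a second definition of the permutation p were added after the data were seen, the last after the first definition gave no pair that passed. Promoters shown were also chosen then.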

Additional observations from a re-analysis of the deposited data

Results flagged for a closer look

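In 7 of 84 sets of values (42 genes in 2 groups) 1 library lay far from the others of its group by Dixon's criterion, which chance alone meets in about 1 of 20 sets. In cKO 4, Acsl3 was high (47.06 against 24.3 to 27.9 CPM in the other cKO libraries), while Hadh (321.1 against 362 to 364 CPM), Acaa1a (37.43 against 51.9 to 54.5 CPM) and Eci1 (157.9 against 187 to 192 CPM) were low. This is the 1 cKO library of the Rps3a3-high set, and the part of that set in these values was not tested. Etfb was high in cKO 2 (423.9 against 304 to 320 CPM). Acadvl was low in control 5 (880.4 against 948 to 961.5 CPM) and Acacb was high in control 1 (291.2 against 257 to 265 CPM). Of these genes only Hadh passed, and it passed without cKO 4 too.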

How the results depend on the processing

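Of the 12 genes that passed, Fabp3, Acadm, Acad11 and Bdh1 passed in all 20 alternative fits and the other 8 kept their direction in all. Fitted on the 5 Rps3a3-low libraries, the count of genes past both thresholds was 620, and 3 of the 42 rose, 1 fell and 1 passed both thresholds. Those other 8 genes missed there, among them Hadh, Echs1 and Acadl (adjusted p = 0.0512, 0.0597 and 0.0708). Of the further pathway genes 2 rose and 3 fell. Leaving out 1 library gave 909 to 1171 genes past both thresholds, 6 to 7 of the 42 higher, 4 to 5 lower and 1 to 3 past both thresholds (1 without control 2, cKO 2 or cKO 4). Echs1 missed without control 1, 2 or 4 or cKO 1, 3 or 4, and Acaca without control 1, 2 or 3 or cKO 2, 3 or 4 (adjusted p up to 0.109 and 0.0976). Further pathway genes that rose numbered 3 to 7 on leaving out a library (3 without control 2, control 5 or cKO 4 and 4 without control 4 or cKO 2), 3 with no low-count filter and 4 with Xist as a covariate, under which Echs1 missed (0.0577).

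Deviations of same-numbered samples correlated at -0.0518, 0.0666 and -0.0081 for numbers 1 to 3 and at 0.302 for number 4, so not every pair passed 0.1 and the numbers were not taken to pair the samples. With the replicate block 1 of the 42 passed both thresholds, 3 further pathway genes rose, and Acsl5 and Ucp2 missed (0.0723 and 0.0819). The absolute-difference p gave adjusted p = 0.0397 for Acsl1 to Acsl4 (-0.41) and Bdh1 to Oxct1 (1.99), against 0.0794 by the first definition. A lone pair cannot pass after adjustment over 10 (smallest exact permutation p 0.0159), so a miss says little. Leaving out 1 library gave -0.02 to 0.26 for Acsl1 to Acsl3, -0.22 to 0.11 for Slc27a1 to Cd36, -0.35 to -0.13 for Etfa to Etfb and -0.29 to -0.04 for Cpt1b to Cpt1a, none of which passed.

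Signs turned only for genes that did not pass, with log2 values of -0.09 to 0.13 apart from Acsl3 at -0.24. On the Rps3a3-low libraries these were Cd36 (0.13), Hadhb (0.14), Eci2 (0.01), Ucp3 (0.39) and Acat1 (0.02), and with the library set as a term Acsl3 (0.01), Hadhb (0.04), Acaa1a (-0.03) and Ucp3 (0.13). Upper-quartile scaling gave Cpt1b 0.01, Hadhb 0.00 and Acacb 0.01, the filter at a mean of 1 CPM Cpt1b 0.00 and Acacb 0.01, the Xist covariate Cpt1b 0.00 and Acacb 0.00, and no filter Slc25a20 0.00. Leaving out 1 library gave ranges of -0.19 to 0.05 for Slc27a1, -0.10 to 0.05 for Cpt1b, -0.02 to 0.03 for Slc25a20, -0.05 to 0.04 for Hadhb, -0.15 to 0.13 for Ucp3, -0.05 to 0.00 for Acat1 and -0.06 to 0.03 for Acacb. The causes were not tested.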
